A study of Homo sapiens with 2 samples.

Results

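The 9 genes described here, CDKN2A, BRCA1, MGMT, RASSF1, DAPK1, CDH1, APC, GSTP1 and VHL, are tumour suppressors or protective genes whose promoters are often methylated in human tumours. They were taken by name out of 64449 annotated genes, as loci where methylation by DNMT3A away from its target would matter. For each gene, the promoter was 1 kb either side of the annotated gene start and the gene body ran from the annotated start to the annotated end. A CpG entered when at least 1 read covered it in both libraries. This left 777 CpGs in the promoters and 8598 in the gene bodies of the 9 genes, of 14699127 in the genome. DNA methylation was measured by whole-genome bisulfite sequencing (WGBS) in HEK293T cells, a human embryonic kidney line, with 1 library per group and therefore without replicates.

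The negative control (Neg) is described by the study as cells that were not transduced, although the labels attach the same text on infection to both samples. The other cells (dCas9+3A+HOXA5, also called the treated library here) carried 3 lentiviral components. These were a nuclease-dead Cas9 with the SunTag epitope array, the long isoform of DNMT3A fused to an antibody fragment that recognises the array, and a guide RNA directed to HOXA5. Cells positive for the fluorescent markers were sorted, and the labels give 30 days after infection as the time of collection. Neither library came from cells with the DNMT3A fusion but without the guide, so that the guide, the fusion, the transduction and the sort cannot be told apart here. Expression data were not analysed here, and WGBS does not allow the cell type to be checked against marker genes by their expression.

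CpGs in the CpG-rich promoters of most housekeeping and tumour suppressor genes are unmethylated in normal cells, while CpGs in active gene bodies and between genes are mostly methylated. DNMT3A is a de novo methyltransferase, which adds methyl groups to CpGs that carry none. In tumours, dense methylation around the transcription start of a tumour suppressor is a known route to its lasting silencing, and cell lines often keep or acquire such methylation in culture.

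Methylation of a window was taken as the mean level of its CpGs, each with equal weight. The level of a CpG is the deposited methylated fraction, over a read count that allows for evidence of a C-to-T variant. A level given beside read counts can therefore differ from the share of those reads. The Neg library held 89774283 reads summed over CpGs with a median of 3 per CpG, and the treated library 46703423 reads with a median of 2. Over all covered CpGs the mean was 63.7% in Neg and 69.5% in the treated library, a difference of 5.81 percentage points. Around the HOXA5 guide, the target of the system, a window of 4.5 kb was 3.18% (32 of 805 reads methylated) in Neg and 51.4% (387 of 861 reads) in the treated library. A window was called when its mean differed by more than 20 percentage points with an adjusted p under 0.01, by Fisher's exact test on summed reads, adjusted by the Benjamini-Hochberg method over all windows of the genome. With 1 library per group, this test compares the 2 libraries and not the conditions, and reads of neighbouring CpGs can come from the same fragment. All intervals are 95% intervals and cover counting error only.

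The promoters of the 9 genes covered almost the whole range of methylation in Neg, from 1.32% at CDKN2A to 94.6% at RASSF1. Of the 9 promoters, 1 rose by the thresholds, GSTP1, and 0 fell, while 2 had an unadjusted p under 0.05, beside 25.7% of the promoters of all genes. Over 53141 promoters of all genes, 2.31% were called higher and 0.589% lower. Among 10304 protein-coding promoters with a Neg level under 20%, 0.844% were called higher. The median difference over the 9 promoters was 0.531 points, with 5 above and 4 below 0, beside 2.54 points over all promoters and 1.35 points over 18538 protein-coding ones. With a single member called, the share of the 9 is no measure of how often such genes gain methylation.

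**Figure D1:**
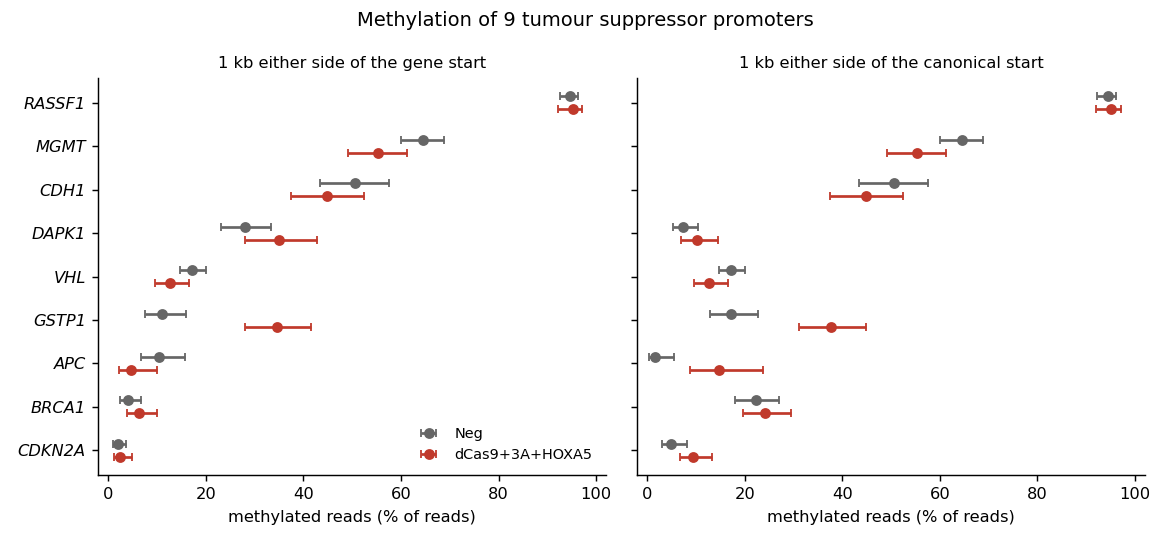
Share of methylated reads (%) in the promoters of the 9 genes, in Neg (grey) and dCas9+3A+HOXA5 (red), with 95% Wilson intervals for counting error; the left panel uses the gene start and the right panel the start of the canonical transcript. GSTP1 is the gene whose intervals lie clearly apart in both panels (11.1% and 34.6% on the left), while RASSF1 stays near the upper end and CDKN2A near the lower end in both libraries.

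CDKN2A encodes p16INK4a, an inhibitor of CDK4 and CDK6, and from an upstream first exon p14ARF, an inhibitor of MDM2. Its gene start is that of the ARF transcripts, at chr9:21994300-21996300 (minus strand, GRCh37). The promoter was unmethylated in both libraries, at 1.32% (10 of 510 reads) in Neg and 1.85% (7 of 287 reads) in the treated library over 110 CpGs. The 95% interval of the difference in read share ran from -1.56 to 3.14 points, so that a gain of the size required for a call lay outside it. Of 110 CpGs, 98 had the same level in both libraries. The 250 bases before the ARF start are shown as an example of a CpG-rich stretch with few methylated reads in both libraries, with each CG in capitals. They lie at chr9:21995301-21995550, hold 26 CpGs and partly overlap a short annotated exon of another gene:
CDKN2A, 250 bases before the start: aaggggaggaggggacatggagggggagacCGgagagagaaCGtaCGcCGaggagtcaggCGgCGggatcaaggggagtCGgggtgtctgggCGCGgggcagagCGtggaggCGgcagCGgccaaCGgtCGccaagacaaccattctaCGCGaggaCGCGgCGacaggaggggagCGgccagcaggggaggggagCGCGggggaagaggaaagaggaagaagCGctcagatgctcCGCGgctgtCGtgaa

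Of the reads in this stretch, 1 of 95 was methylated in Neg and 0 of 36 in the treated library, which allows up to 8.33% in the latter. This limit, like those for other shares of 0 below, takes reads as independent. It is too low where neighbouring CpGs share fragments. The p16INK4a transcript starts 20.4 kb downstream of the gene start. Its window was 5.27% (14 of 285 reads) in Neg and 7.19% (29 of 306 reads) in the treated library (adjusted p = 0.161, Fisher's exact test). Within 250 bp of this start, 0 of 73 and 0 of 66 reads were methylated, which allows up to 4.11% and 4.55%. Methylated reads of the p16INK4a window lay farther out. From 750 to 1000 bp downstream the level was 24.3% in Neg and 33.1% in the treated library. Another annotated start, 23.9 kb downstream of the gene start, lay in methylated DNA at 96.4% and 99.6%.

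BRCA1 acts in homologous recombination repair of DNA breaks. The annotated gene start lies 44881 bp upstream of the canonical transcript start, next to the start of NBR1, so that the window by the gene start (chr17:41321262-41323262) is shared with this neighbour. It was 5.19% (14 of 343 reads) in Neg and 5.14% (15 of 240 reads) in the treated library over 83 CpGs. The difference of -0.0518 points has no direction that holds, since 6 of the alternatives tried gave a positive one. At the canonical start, which BRCA1 shares with NBR2 on the other strand, the level was 18.9% in Neg and 17.0% in the treated library over 69 CpGs (adjusted p = 0.818, Fisher's exact test). The start itself was unmethylated, with 0 of 81 methylated reads in Neg and 2 of 84 in the treated library within 250 bp of it. Most methylated reads of the window lay upstream, where the level from 750 to 1000 bp was 56.1% (59 of 103 reads) in Neg and 46.2% (59 of 118 reads) in the treated library. Downstream, from 500 to 750 bp, 15 of 53 and 4 of 21 reads were methylated, and from 750 to 1000 bp 1 of 23 and 3 of 12. Outside the window, from 1000 to 1250 bp upstream, the mean over 11 CpGs was 57.5% in Neg and 96.1% in the treated library. By read counts the libraries were much closer, with 44 of 52 and 43 of 46 reads methylated, so this gap rests on the mean over CpGs. From 1750 to 2000 bp upstream the level was 96.3% and 100%.

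MGMT removes alkyl groups from guanine in damaged DNA, and its promoter methylation is a known marker in glioma. Its promoter (chr10:131264454-131266454, plus strand) was partly methylated in Neg, at 64.2% (290 of 449 reads) over 94 CpGs. In dCas9+3A+HOXA5 it was 53.6% (142 of 257 reads), so the treated library had the lower level. This was the lowest difference of the 9, at -10.5 points, and it did not pass the thresholds (adjusted p = 0.0899, Fisher's exact test). The interval of the difference in read share ran from -16.8 to -1.85 points. More CpGs were lower than higher, 38 against 25, and 31 were equal. With at least 5 reads per CpG the difference was -24.9 points over 13 CpGs (adjusted p = 0.031, Fisher's exact test). Most of these CpGs lie from 84 to 142 bp after the start, with 5 or 6 reads each per library. The same fragments can therefore lie behind them. With the best covered CpG of each 150-bp bin alone the difference was -23.5 points over 12 CpGs (adjusted p = 0.72, Fisher's exact test). The promoter was not called in either case. Among the 250-bp bins of the promoter with at least 3 covered CpGs, the lower level was most marked in the 250 bases before the start, where it was 50.7% in Neg (89 of 152 reads) and 23.1% in the treated library (12 of 51 reads). In the 250 bases after the start it was 84.4% and 76.3%. The outermost bins, with 2 and 1 covered CpGs, differed by -30.6 and -50 points on 15 and 2 reads in Neg and 4 and 2 in the treated library. In bins set from the canonical start, 51 bp downstream, the 250 bases before the start differed by -16.8 points and the 250 before those by -16.2 points. The bin from 1000 to 750 bp before the canonical start differed by -20.4 points over 3 CpGs. The place of the widest gap thus depends on the bin edges. The stretch before the gene start, at chr10:131265204-131265453, held the widest gap among the gene start bins with at least 3 covered CpGs. It is printed here with its 37 CpGs in capitals, of which 26 were covered:
MGMT, 250 bases before the start: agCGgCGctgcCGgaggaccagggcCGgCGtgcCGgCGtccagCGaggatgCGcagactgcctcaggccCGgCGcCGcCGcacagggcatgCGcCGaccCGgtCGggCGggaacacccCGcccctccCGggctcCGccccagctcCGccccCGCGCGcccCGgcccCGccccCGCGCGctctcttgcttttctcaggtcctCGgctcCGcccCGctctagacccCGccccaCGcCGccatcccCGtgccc

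RASSF1 encodes a scaffold that binds Ras and the Hippo kinases. Its RASSF1A isoform, which starts at the gene start, is among the promoters most often methylated in tumours. In HEK293T it was methylated in both libraries, at 94.6% (569 of 601 reads) in Neg and 96.4% (276 of 290 reads) in the treated library over 85 CpGs of chr3:50377411-50379411. The interval of the difference in read share ran from -2.97 to 3.35 points. Since the level in Neg was within 20 points of full methylation, no gain of the size required for a call could occur there. The first intron after the RASSF1A exon at chr3:50377741-50377985 is shown as a stretch with 22 CpGs, all of them covered, in which 151 of 157 reads in Neg and 96 of 99 in the treated library were methylated:
RASSF1, first intron: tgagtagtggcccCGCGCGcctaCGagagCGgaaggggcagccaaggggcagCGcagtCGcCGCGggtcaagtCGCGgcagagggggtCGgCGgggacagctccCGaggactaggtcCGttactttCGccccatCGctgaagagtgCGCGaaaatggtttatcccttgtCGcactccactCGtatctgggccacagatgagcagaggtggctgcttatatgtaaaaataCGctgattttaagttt

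A shorter isoform starts 2.75 kb downstream of the RASSF1A start. Its window was 43.1% (142 of 274 reads) in Neg and 62.2% (39 of 60 reads) in the treated library over 37 CpGs, with 21 CpGs higher, 2 lower and 14 equal. The interval of the difference in read share, from -0.751 to 25.5 points, included 0. Coverage of the RASSF1 body was low in the treated library, at 1.28 reads per CpG against 5.78 in Neg, which is 0.427 of the ratio between the library totals. The part of this depth gap in the difference was not tested.

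DAPK1 is a calcium/calmodulin-regulated kinase that promotes cell death. Its promoter window, chr9:90111143-90113143, was 24.2% (80 of 286 reads) in Neg and 27.0% (56 of 160 reads) in the treated library over 82 CpGs (adjusted p = 0.36, Fisher's exact test). The window spans a border. From 500 to 250 bp before the start the level was 86.2% and 87.5%, and from 250 bp after it onwards the CpGs were nearly unmethylated, with 2.08% in both libraries from 750 to 1000 bp. The canonical transcript starts 639 bp downstream, inside the unmethylated part, and its window was 7.42% and 7.49%. The overlapping window of a further start, 1.31 kb downstream, was 1.18% (7 of 432 reads) in Neg and 8.06% (24 of 251 reads) in the treated library. The interval of the difference in read share there ran from 4.45 to 12.3 points. Farther in, from 1750 to 2000 bp after the gene start, 0 of 20 reads were methylated in Neg and 7 of 11 in the treated library, over 8 CpGs. In the partly overlapping bin from 1250 to 1500 bp after the canonical start, 1 of 45 and 17 of 30 reads were methylated, over 9 CpGs.

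CDH1 encodes E-cadherin, the adhesion molecule of epithelial junctions. The promoter (chr16:68770195-68772195) was 49.4% (95 of 188 reads) in Neg and 47.9% (73 of 163 reads) in the treated library over 73 CpGs (adjusted p = 0.567, Fisher's exact test). Its unmethylated part was narrow. In the 250 bases before the start 18 of 57 reads were methylated in Neg and 6 of 39 in the treated library (31.1% and 16.7%). In the 250 bases after the start 0 of 16 and 0 of 23 reads were methylated, whereas from 750 to 1000 bp the level was 73.5% and 72.0%. From 1000 to 1250 bp it was 83.3% in Neg (40 of 48 reads) and 42.9% in the treated library (11 of 26 reads). The window from 1 to 2 kb after the start was 76.9% and 57.1%, which did not pass the thresholds (adjusted p = 0.415, Fisher's exact test).

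APC is the scaffold of the complex that marks beta-catenin for degradation. Its gene start is that of promoter 1B. There the level was 8.61% (18 of 173 reads) in Neg and 1.85% (6 of 127 reads) in the treated library over 54 CpGs of chr5:112042215-112044215 (adjusted p = 0.275, Fisher's exact test). All 6 methylated reads of the treated library came from 1 CpG between 1000 and 750 bp upstream. In Neg its level was 41.7% on 1 of 4 reads, since its estimated read count was lowered for evidence of a C-to-T variant. Without CpGs with such evidence, this CpG was left out and 53 remained. The difference was then -7.99 points (adjusted p = 0.00279, Fisher's exact test), which was still short of 20 points. Promoter 1A, whose methylation is the form known from tumours, lies 30367 bp downstream at the canonical start. Its window was 2.69% (2 of 129 reads) in Neg and 9.68% (13 of 88 reads) in the treated library over 31 CpGs. The read counts of the 1A window differed by Fisher's exact test (adjusted p = 0.00352), but the difference of 6.99 points was short of 20 points and the window was not called. Within 250 bp of the 1A start 0 of 86 and 0 of 58 reads were methylated, which allows up to 3.49% and 5.17%. Of the 13 methylated reads in the treated library, 10 came from 2 CpGs between 500 and 750 bp downstream. The directions at 1B and 1A were thus opposite, with neither called.

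GSTP1 conjugates glutathione to electrophiles, and its methylation is a known early event in prostate cancer. It was the 1 gene whose promoter rose by the thresholds. Over 67 CpGs of chr11:67350213-67352213 (plus strand), the level rose from 8.97% (24 of 216 reads) to 36.2% (65 of 188 reads), a difference of 27.2 points (adjusted p = 1.49e-06, Fisher's exact test). The interval of the difference in read share ran from 15.4 to 31.3 points. Of the 67 CpGs, 27 were higher, 4 lower and 36 equal. With 188 reads over these 67 CpGs in the treated library, an equal level does not show that a CpG was without gain. At canonical starts GSTP1 was again the 1 member called higher, with 0 called lower, beside 2.3% and 0.666% of 46423 such windows, and 4 of the 9 had an unadjusted p under 0.05, beside 26.3%. At its canonical start, 70 bp downstream, the level rose from 11.8% to 39.2%. The call did not hold with the best covered CpG of each 150-bp bin alone (30.4 points, adjusted p = 0.113, Fisher's exact test) or within 500 bp of the start (18.5 points, adjusted p = 3.13e-05). At the minimum of 5 reads that the study names, 3 CpGs were left and no test was run.

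Downstream of the GSTP1 start, the gain lay within the first 1 kb. Of the 129 CpGs in the promoter sequence, 67 were covered, and no CpG was covered from 500 to 250 bp before the start. In the 250 bases before the start 3 CpGs were covered, with 0 of 3 methylated reads in Neg and 0 of 6 in the treated library. These reads are too few to give a level just upstream of the start. The 250 bases after the start had 1 of 68 methylated reads in Neg and 26 of 106 in the treated library. From 500 to 750 bp the level was 22.4% (10 of 41 reads) and 69.2% (16 of 20 reads) over 13 CpGs. From 750 to 1000 bp it was 38.2% (7 of 16 reads) and 93.8% (12 of 13 reads) over 4 CpGs. In bins set from the canonical start the differences over the same 4 steps were 23.3, 16.7, 62.0 and 39.1 points, so that all were gains but in no steady order. From 1000 to 1250 bp both libraries were nearly fully methylated, at 97.5% and 100%. In these bins the downstream border between unmethylated and methylated DNA lay nearer to the start in the treated library. Few reads lie behind this border, and neighbouring CpGs can share fragments. A further part of the gain lay upstream, from 750 to 500 bp before the start, where 2 of 51 reads were methylated in Neg and 5 of 9 in the treated library. The bin next to it, from 1000 to 750 bp before the start, went the other way, with 4 of 23 and 0 of 16 methylated reads. The first intron at chr11:67351343-67351473 is shown because all of its 9 CpGs were covered and none was methylated in Neg (0 of 35 reads, which allows up to 8.57%), while 24 of 50 reads were methylated in the treated library:
GSTP1, bases 130 to 260 after the start: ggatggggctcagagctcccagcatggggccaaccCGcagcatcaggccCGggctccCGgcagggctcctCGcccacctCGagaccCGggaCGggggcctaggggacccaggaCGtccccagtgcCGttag

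Within this stretch, the CpGs 200, 216 and 221 bp after the start were the 3 of the promoter with at least 5 reads in both libraries. Each had 0 of 5 methylated reads in Neg and 4 of 6 in the treated library. Their equal counts and close spacing mean that the same fragments can lie behind them.

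VHL targets the hypoxia-inducible factors for degradation. Its promoter (chr3:10182462-10184462) was 10.8% (126 of 731 reads) in Neg and 14.5% (45 of 357 reads) in the treated library over 129 CpGs. The mean over CpGs was higher by 3.73 points in the treated library while the share of reads was lower by 4.63 points, so the promoter had no stable direction (adjusted p = 0.197, Fisher's exact test). Within 250 bp of the start, 1 of 255 and 4 of 195 reads were methylated. Inside the window the libraries already differed from 750 to 500 bp before the start, at 54.8% (15 of 30 reads) and 80.9% (12 of 16 reads) over 7 CpGs. The bins from 500 bp before to 750 bp after the start differed by -3.03 to 2.08 points. Past the downstream end of the window the gap was wider. From 1 to 2 kb after the start the level rose from 12.1% (15 of 118 reads) to 54.7% (32 of 53 reads) over 25 CpGs, a difference of 42.6 points (adjusted p = 8.66e-08, Fisher's exact test). Of these CpGs 15 were higher, 1 was lower and 9 were equal.

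**Figure D2:**
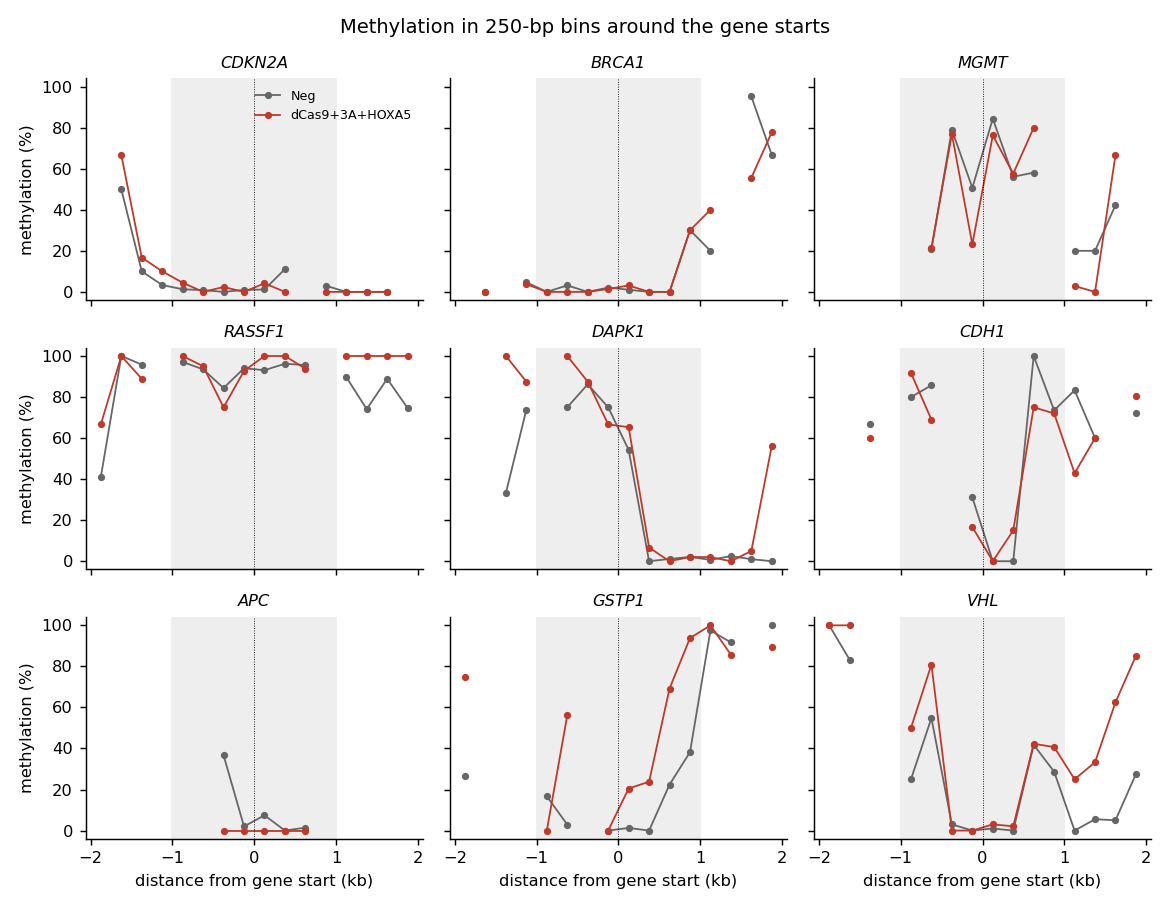
Methylation (%) in 250-bp bins by distance from the gene start (kb) for the 9 genes, in Neg (grey) and dCas9+3A+HOXA5 (red), for bins with at least 3 covered CpGs; shading marks the promoter window. In GSTP1, and in VHL beyond 1 kb, the red line climbs nearer to the start than the grey line. In DAPK1 the lines part in the last bin, at 0% in Neg and 56.2% in the treated library over 8 CpGs. Across the promoter CDKN2A stays low, up to 11.1% in a bin of 3 CpGs in Neg, and RASSF1 high in both libraries.

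The window from 1 to 2 kb after the gene start was tested for 8 of the 9 genes, after the VHL profile had been seen, since APC had 3 covered CpGs there. VHL was the 1 called higher and 0 were called lower, beside 2.71% and 0.533% of 36010 such windows of all genes. Where the promoter of a protein-coding gene was under 20% in Neg, as that of VHL was, 5.07% of 7847 such windows were called higher. RASSF1 had a mean of 79.9% in Neg (95 of 120 reads) and 100% in the treated library (35 of 35 reads) (adjusted p = 0.0217, Fisher's exact test). DAPK1 was 0.979% (3 of 214 reads) and 9.52% (10 of 135 reads), also short of the thresholds. CDKN2A was 2.50% and 0%, with 0 of 208 methylated reads in the treated library. The level was also lower in the treated library at CDH1 (-19.9 points), MGMT (-6.30 points) and GSTP1 (-5.48 points), none of them called. The 8 windows thus split into 4 higher and 4 lower, with a median difference of -0.595 points, beside 4.32 points over all such windows. In the 10304 protein-coding promoters under 20% in Neg, the bins within 250 bp of the start were 1.77% to 2.19% in Neg and 2.12% to 2.80% in the treated library. These promoters were chosen by their Neg level within 1 kb of the start, which keeps the inner bins low. Their bins from 1 to 2 kb were higher by 5.66 to 6.59 points in the treated library.

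Gene bodies were then compared in the same way. None of the 9 bodies passed the thresholds in either direction, beside 3.81% called higher and 0.534% lower among 44551 bodies. At an unadjusted p under 0.05, 7 of the 9 differed in read counts, beside 47.3% of all bodies and 56.8% of protein-coding ones. The mean was higher in the treated library in 8 of the 9, beside 34045 of all 44551 bodies and 16059 of 19420 protein-coding ones. The median difference was 4.53 points, beside 4.17 over all bodies and 3.68 over protein-coding ones. In Neg the bodies ranged from 27.8% at MGMT to 80.01% at CDH1.

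CDH1 was 80.01% and 84.5% over 878 CpGs, BRCA1 79.2% and 82.4% over 1259, DAPK1 76.8% and 81.3% over 1704, and APC 76.5% and 80.1% over 586. These 4 long genes were highly methylated in Neg, and their differences of 3.19 to 4.53 points were below the 5.81 points of all covered CpGs. Among protein-coding bodies of like level, the median difference was 4.36 points at 60 to 80% in Neg and 2.5 points at 80 to 100%. In CDKN2A the body was 55.1% and 60.8%, which joins the unmethylated ARF and p16INK4a starts with methylated DNA between them. RASSF1 was 70.5% and 78.8%. VHL was 41.0% and 48.5%, a difference of 7.57 points (adjusted p = 0.23, Fisher's exact test). Without its first 1 kb, the VHL body differed by 11.5 points (adjusted p = 3.84e-05, Fisher's exact test). This part includes the window from 1 to 2 kb given above, while the parts from 2 to 5, 5 to 10 and beyond 10 kb differed by 1.93, 0.259 and -1.15 points. In RASSF1, the part from 2 to 5 kb, which holds the start of the shorter isoform, was 27.0% in Neg (324 reads over 53 CpGs) and 44% in the treated library (94 reads).

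GSTP1 had the largest mean difference of the 9 bodies, from 43.6% to 59.8% over 82 CpGs, but not by read counts (139 of 264 and 145 of 253 methylated reads, adjusted p = 0.435, Fisher's exact test). Its first 1 kb went from 9.56% to 39.5%. Without this part the difference reversed to -5.33 points, with 96.3% and 90.8% from 1 to 2 kb. The higher mean of the GSTP1 body therefore rested on the CpGs that its promoter window also holds. Coverage of the body was 2.42 reads per CpG in the treated library and 2.67 in Neg, which is 1.74 of the ratio between the library totals. Over the promoter it was 1.11 of that ratio. The part of depth in the difference was not tested.

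MGMT differed from the other 8 bodies in direction. Over 3308 CpGs its body was 27.8% (4193 of 14838 reads) in Neg and 21.8% (2506 of 10766 reads) in the treated library, a difference of -6.07 points (adjusted p = 7.49e-18, Fisher's exact test), which is below the 20 points required for a call. More CpGs were lower (1119) than higher (600). The lower level held in exons, at 74.5% and 63.2% over 133 CpGs, and in introns, where the difference was -5.85 points over 3175 CpGs. It held in each of the 9 distance classes from the start, with differences from -2.63 to -14.7 points. Under the 6 alternatives for the body the difference stayed between -6.76 and -4.98 points.

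**Figure D3:**
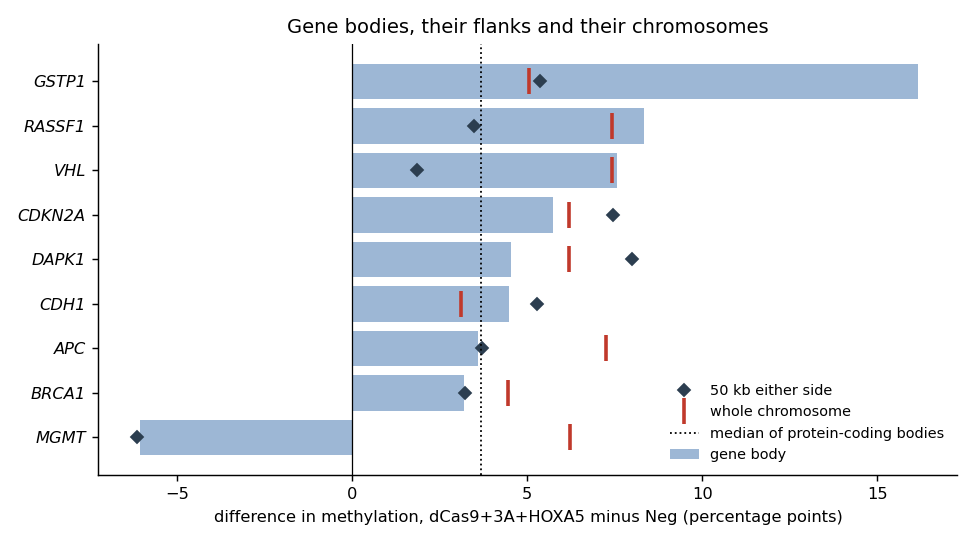
Difference in methylation between dCas9+3A+HOXA5 and Neg (percentage points) for the 9 gene bodies (bars), the 50 kb either side of each gene (diamonds) and its chromosome (red ticks), with the median of protein-coding bodies as a dotted line. MGMT is the one bar to the left of 0, at -6.07 points, and its flanks lie there too, at -6.13 points, while chromosome 10 is at 6.23 points.

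The lower level was not limited to the MGMT gene. The 50 kb either side of it were 35.7% in Neg and 29.6% in the treated library, whereas chromosome 10 as a whole was higher by 6.23 points. In tiles of 20 kb, 13 of 15 upstream of the gene and 14 of 15 within it were lower in the treated library, with median differences of -5.11 and -5.94 points. These tiles were poorly methylated in Neg, with medians of 18.6% upstream and 27.3% within the gene. Downstream the DNA became methylated, with a median of 71.1%, and 4 of 14 tiles were lower. From 360 to 380 kb after the start, the level was 89.0% and 89.8%. MGMT thus lay at the end of a long stretch of low methylation in both libraries. Among 1561 protein-coding bodies with 20 to 40% methylation in Neg, the median difference was 2.09 points, and 540 were lower in the treated library.

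**Figure D4:**
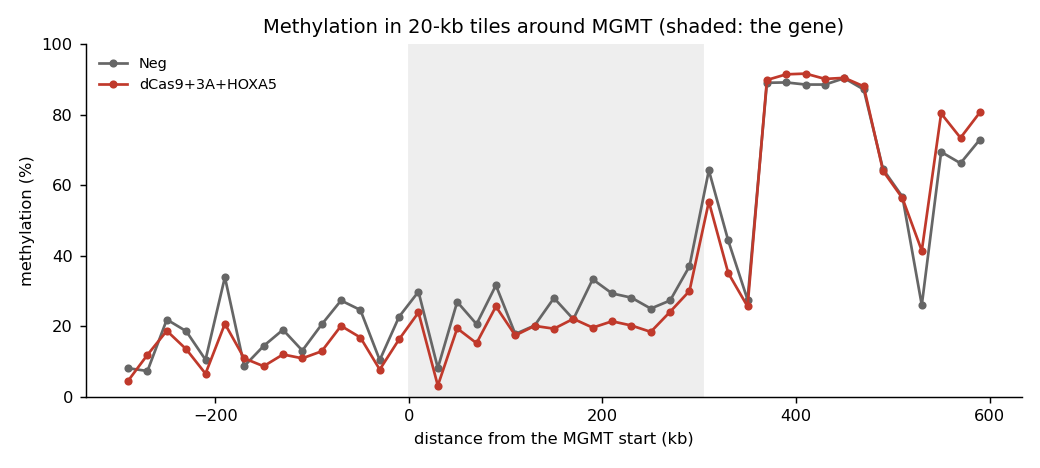
Methylation (%) in 20-kb tiles by distance from the MGMT start (kb), in Neg (grey) and dCas9+3A+HOXA5 (red); the gene is shaded. The red line lies below the grey one in 13 of 15 upstream tiles and 14 of 15 tiles of the gene, and both lines climb to about the same level, 89.0% and 89.8%, from 360 to 380 kb.

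Single CpGs were also read, as a description. In the gene start and canonical windows of the 9 genes, 98 CpGs had at least 5 reads in both libraries, of which 29 were in RASSF1, 21 in BRCA1, 15 in CDKN2A and 13 in MGMT. Of the 98, 37 were unmethylated in both and 24 fully methylated in both, while 16 were higher and 21 lower in the treated library. The 12 unmethylated ones of CDKN2A, the 13 of BRCA1, the 7 of APC and the 5 of VHL made up the first class. RASSF1 gave 18 of the 24 fully methylated CpGs. A difference of over 50 points upwards was found at 4 CpGs, 3 in GSTP1 and 1 in BRCA1. The BRCA1 site lies at -882 bp from the canonical start and had 3 of 9 methylated reads in Neg and 7 of 8 in the treated library. A difference of over 50 points downwards was found at 1 CpG, in MGMT, with 4 of 6 and 0 of 6 methylated reads 444 bp after the start. In MGMT, 8 of the 13 CpGs with at least 5 reads were lower. Most of these 8 lie from 84 to 142 bp after the start, where the same fragments can lie behind neighbouring CpGs.

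The guide was compared with the 9 promoters to see how closely any site resembles the target. Each promoter was searched on both strands for the 20 bases before an NGG with the fewest mismatches to the HOXA5 guide, which matches chr7:27182884-27182903 (plus strand) exactly. The guide and the closest sites of GSTP1, of DAPK1 and of the p16INK4a start are shown, with mismatches in capitals and the NGG as the last 3 bases of a site. The coordinates are those of the 20 bases, on the plus strand for GSTP1 and DAPK1 and on the minus strand for the p16INK4a site:
HOXA5 guide: ggctgtcgctgccgggcgag
GSTP1, chr11:67351081-67351100: ggctTCcCcGgccAgCTgCgcgg
DAPK1, chr9:90112551-90112570: CgGCgtGgGtgTGgggcgagtgg
CDKN2A (p16INK4a), chr9:21974725-21974744: TgcGgGcgctgcTggAGgCgggg

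The closest GSTP1 site had 8 mismatches over the 20 bases, and 39.2% of the promoters of all genes had a site with as few. CpGs within 250 bp of it were 1.59% in Neg (39 reads) and 9.52% in the treated library (68 reads). The closest sites of the gene start windows were the DAPK1 site with 7 mismatches, matched by 16.3% of promoters, and those with 8 or 9 in the other genes. Around the DAPK1 site the level was 0% (66 reads) and 6.25% (31 reads). Around the p16INK4a site, also with 7 mismatches, it was 0% in both, with 90 and 51 reads. A match in sequence does not show that the guide binds.

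A wider list of 47 other genes known for promoter methylation in tumours was read beside the 9. At the gene start 45 of them were tested, of which 1 was called higher and 0 lower, and 15 (33.3%) had an unadjusted p under 0.05, beside 25.7% of all promoters. The median difference was 1.81 points, with 28 higher and 17 lower. By group, the medians were 2.95 points for cell cycle genes, 2.09 for DNA repair, 3.05 for adhesion and invasion, 0.264 for the Wnt pathway, 2.69 for Ras and apoptosis, and -0.249 for signalling and receptors. At the canonical starts 47 were tested and 0 were called, while 12 (25.5%) had an unadjusted p under 0.05, beside 26.3% of all canonical starts.

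The gene called was NDRG4, a member of the N-myc downstream-regulated family. Its promoter rose from 17.7% (66 of 349 reads) to 45.6% (145 of 295 reads) over 98 CpGs (adjusted p = 1.21e-13, Fisher's exact test), but its canonical start was 29.0% and 36.1% over 32 CpGs. CHFR, a mitotic checkpoint ligase, was 52.8% and 83.3% over 6 CpGs with 15 and 6 reads, and at its canonical start 27.8% and 18.9%. CDKN1A, which encodes the CDK inhibitor p21, was 60.8% and 85.2% over 18 CpGs (adjusted p = 0.187, Fisher's exact test), and 2.93% and 4.91% at its canonical start. RASSF5, a relative of RASSF1, was 84.0% and 65.9% over 96 CpGs, a difference of -18.1 points just short of the threshold (adjusted p = 0.000555, Fisher's exact test). STK11, the kinase LKB1, was 74.7% and 88.6%, and at its canonical start 6.87% and 9.11%. FHIT, a gene at a fragile site, had a mean of 1.90% and 14.3% over 28 CpGs. By share of reads it was 2.67% (2 of 75 reads) and 7.69% (6 of 78 reads), with an adjusted p of 0.555 (Fisher's exact test).

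Among all protein-coding promoters with at least as many covered CpGs as GSTP1, those nearest to it in the pair of levels were TFE3 on chromosome X, SH2D4A on chromosome 8 and GOLGA4 on chromosome 3. Their levels were 9.09% and 38.4%, 10.9% and 38.0%, and 5.0% and 34.1%, at distances of 2.23, 2.64 and 4.5 percentage points over the 2 libraries.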

How the data were processed

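The 2 WGBS libraries were used as deposited. Per the study's methods and the labels, the authors trimmed the reads, aligned them to hg19 with BSMAP (version 2.90 in the submitters' processing notes) and called methylation per CpG with both strands combined. How duplicate or multiply matching reads were treated is not stated in the sources used. For each CpG the deposited files hold the count of C reads and of C or T reads, an estimated count in which opposite-strand evidence of a C-to-T variant is allowed for, and the methylated fraction over that estimated count. CpGs below the 5 reads that the study names are also listed, and those with at least 1 read in both libraries were kept here. Both libraries reached 5 reads at 1319472 CpGs.

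Positions were taken from GENCODE release 44 mapped to GRCh37, which has the coordinates of hg19. A window was given the mean deposited fraction of its CpGs. Windows with at least 5 covered CpGs were tested by Fisher's exact test (two-sided) on the counts of methylated and other reads, with Benjamini-Hochberg adjustment over all windows of that kind, in Python 3.11.15 with numpy 2.4.6 and numba 0.67.0. The study tested CpG islands by analysis of variance; its thresholds of 20 percentage points and 0.01 were kept. The test was run beforehand on simulated reads, drawn independently of each other. This setting leaves out shared fragments and variation between libraries, so it does not show how the test behaves with them. Intervals are 95% Wilson intervals for shares and Newcombe intervals for differences, and the limit for a share of 0 is 3 reads of the total. Both take reads as independent, although neighbouring CpGs can share fragments. The canonical start is that of the Ensembl canonical transcript. Groups came from the sample titles. Sequences were read from GRCh37 and the guide from the study's primer list.

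The 9 genes, the list of 47 others and the windows were chosen with earlier results of these data known, and the canonical starts, the windows from 1 to 2 kb, the 20-kb tiles and the printed stretches after the values were seen. All 9 genes are named. Of the 47 others, the gene called and those with the largest absolute differences were named, up to 6, and the 3 promoters nearest to the member of largest difference.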

Additional observations from a re-analysis of the deposited data

How the results depend on the processing

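The count of promoters called among the 9 genes went from 1 higher to 0 with at least 5 reads per CpG, with the best covered CpG per 150-bp bin and with 500 bp either side of the start, and stayed at 1 with at least 3 reads, by share of reads, without CpGs with evidence of a C-to-T variant, with 2 kb either side and at canonical starts. GSTP1 was the gene lost in each case, with 3 CpGs left at 5 reads, 30.4 points at the best covered CpGs and 18.5 points within 500 bp. No promoter of the 9 was called lower, and no body was called, under any alternative run.

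Over all genes, promoters called higher numbered 1226 of 53141 tested in the main analysis. They numbered 739 of 34119 with at least 3 reads, 251 of 12929 with at least 5 and 293 of 46488 with the best covered CpGs. With 500 bp they numbered 761 of 43631 and with 2000 bp 1954 of 59551. Promoters called lower numbered 103 of 12929 with at least 5 reads, 512 of 53141 by share of reads and 35 of 46488 with the best covered CpGs. The main analysis had 313 of 53141. Gene bodies called higher numbered 888 of 25347 with at least 5 reads, against 1699 of 44551. Bodies called lower numbered 238 of 44551 in the main analysis and 127 of 25347 with at least 5 reads. They numbered 119 of 38208 with the best covered CpGs and 151 of 35331 without the first 1 kb. Fewer windows were tested where CpGs were dropped. With the best covered CpGs, the promoters called fell far more than the promoters tested. The causes of these shifts were not tested.

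The direction reversed in 11 cases. The BRCA1 promoter, at -0.0518 points, was 1.22 with at least 3 reads, 2.17 by share of reads, 1.92 with the best covered CpGs, 0.286 without variant CpGs, 0.61 with 500 bp and 0.813 with 2000 bp. RASSF1 was -0.928 points with at least 5 reads, VHL -4.63 by share of reads, CDH1 2.16 with 500 bp and APC 6.99 at the canonical start. The APC value belongs to promoter 1A, 30367 bp downstream, and so to other CpGs. In VHL, the bin from 500 to 750 bp held 94 of 219 methylated reads in Neg and 14 of 31 in the treated library. The causes of the reversals were not tested. The GSTP1 body was -5.33 points without the first 1 kb, the part that held its gain (29.9 points, against -5.48 from 1 to 2 kb). In 107 cases the side of the thresholds was kept and the direction was not reversed, and in 2 the call was lost. Some of the 107 still moved far. With the best covered CpGs the promoters of DAPK1 (2.85 points) and VHL (3.73 points) were each at 23.4 points, over 13 CpGs. CDH1 went from -1.46 to -10.5 points with at least 3 reads, and the BRCA1 body from 3.19 to 0.647 points with at least 5. At 5 reads, the promoters of CDH1, GSTP1, APC and DAPK1 and the bodies of GSTP1 and VHL had under 5 CpGs and were not run. No paired analysis was possible because there was 1 library per group. Depth limits the bins and single CpGs, several of which rest on fewer than 20 reads in a library.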
